A study of Mus musculus with 3 samples.

Results

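The ligand *Igf1*, its receptor *Igf1r*, and the binding proteins *Igfbp2*, *Igfbp3*, *Igfbp4*, *Igfbp5*, *Igfbp6*, and *Igfbp7* were followed across the cell types of the P14 mouse lung. These 8 genes were taken by symbol from the 28692 genes counted in the libraries. Single-cell RNA-Seq had been run on dissociated whole lung of 3 WT C57BL/6 mice, numbered 2, 3, and 4, that were kept in room air (RA) for days 1 to 14 of life and taken at P14. All mice belonged to 1 condition, so each comparison below is between cell types within the same lungs, with the mouse as the replicate.

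Insulin-like growth factor 1 is a secreted peptide that signals through the receptor tyrosine kinase IGF1R and, in the postnatal lung, acts on epithelium, endothelium, and mesenchyme during alveolarization. The classic IGF binding proteins hold the ligand in the extracellular space with high affinity. They can carry it, keep it from the receptor, or release it when proteases of the pappalysin family and others cut them. *Igfbp7* is a more distant relative with low affinity for IGF and a place in the vascular and alveolar matrix.

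After droplets with few genes or much mitochondrial RNA were left out, 7642 of 9644 cells remained, 2386, 2601, and 2655 from mice 2, 3, and 4, with 22300042, 20804836, and 23442355 UMIs. Cells were clustered without the 8 genes and without 30 other genes of the pathway, and clusters were named from marker lists ("AT1-like" and so on, with "-like" left out of later mentions). This gave 891 endothelial, 1257 epithelial, 1538 stromal, and 3019 immune cells, made up of 21 types and 1 unnamed immune cluster of 66 cells. Of the types, 19 had at least 10 cells in every mouse, and 937 cells were put in no class. Immune cells were 29.0%, 55.1%, and 33.6% of the cells of mice 2, 3, and 4, so levels are given within a type, as UMIs of the gene scaled to the same total of UMIs for that type in every mouse (CPM; mean ± SD, *n* = 3 mice). In B cells, the 5 AT2 markers, surfactant genes included, summed to 275 to 594 CPM. B cells, which should hold few of the 8 transcripts, therefore serve as the background for shares of cells with a UMI.

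The genes lie on 6 chromosomes (GRCm38, GENCODE M21). *Igf1* spans chromosome 10, 87858265 to 87937042, on the plus strand, and *Igf1r* spans chromosome 7, 67952827 to 68233668, also on the plus strand. *Igfbp2* (chromosome 1, 72824503 to 72852474, plus strand) and *Igfbp5* (chromosome 1, 72857932 to 72874884, minus strand) are neighbors whose 3′ ends face each other across 5457 bp with no gene between them. *Igfbp3* (7206086 to 7213923, minus strand) and *Igfbp4* (99041244 to 99054392, plus strand) both lie on chromosome 11, far apart. *Igfbp6* is on chromosome 15, 102144362 to 102149511, on the plus strand, and *Igfbp7* is on chromosome 5, 77349240 to 77408041, on the minus strand. *Igf1os* overlaps *Igf1*, and *Polr2b* and *Gm34648* overlap *Igfbp7*, each on the opposite strand and each counted as a gene of its own. Whether counting used the strand was not stated, so reads in these overlaps are uncertain.

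The 250 bases before the start annotated by RefSeq are shown for 2 pairs of genes on which the results below turn: *Igf1* and *Igfbp3*, whose levels across types were the most alike of the members, and the neighbors *Igfbp2* and *Igfbp5*, whose highest types were different (RefSeq, GRCm38.p6, 5′ to 3′ on the strand of the gene). Capitals mark the TATA box letters TATAAA, the GC box letters GGGCGG, and the CCAAT box letters CCAAT, searched on both strands; these letters cannot overlap one another in full. *Igf1* is read at chr10:87860861-87861110, *Igfbp3* at chr11:7213924-7214173, *Igfbp2* at chr1:72824230-72824479, and *Igfbp5* at chr1:72874866-72875115. RefSeq and GENCODE place the starts differently. The *Igf1* stretch therefore lies within the gene as spanned above, and the *Igfbp5* stretch ends just inside its gene.
Igf1: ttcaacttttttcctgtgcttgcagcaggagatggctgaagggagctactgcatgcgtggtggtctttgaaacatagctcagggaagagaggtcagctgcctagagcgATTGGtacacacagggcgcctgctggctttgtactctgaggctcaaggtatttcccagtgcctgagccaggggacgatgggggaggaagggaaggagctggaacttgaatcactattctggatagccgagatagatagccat
Igfbp3: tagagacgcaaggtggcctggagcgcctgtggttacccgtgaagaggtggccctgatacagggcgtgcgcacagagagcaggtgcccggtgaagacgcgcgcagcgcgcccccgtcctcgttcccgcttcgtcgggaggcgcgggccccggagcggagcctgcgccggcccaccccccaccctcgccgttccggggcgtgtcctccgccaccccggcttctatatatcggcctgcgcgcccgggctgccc
Igfbp2: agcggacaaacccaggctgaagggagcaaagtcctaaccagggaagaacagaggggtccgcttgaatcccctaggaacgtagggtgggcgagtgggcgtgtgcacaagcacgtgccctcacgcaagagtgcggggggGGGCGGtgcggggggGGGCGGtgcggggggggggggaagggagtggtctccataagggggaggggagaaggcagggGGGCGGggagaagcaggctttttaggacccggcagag
Igfbp5: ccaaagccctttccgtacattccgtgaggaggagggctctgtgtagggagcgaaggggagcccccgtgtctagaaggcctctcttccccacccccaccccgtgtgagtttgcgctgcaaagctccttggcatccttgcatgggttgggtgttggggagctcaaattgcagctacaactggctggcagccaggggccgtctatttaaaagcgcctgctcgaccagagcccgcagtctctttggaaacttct
The *Igf1* stretch held 1 CCAAT match and 52.8% G and C, and the *Igfbp3* stretch held none of the 3 motifs and 73.2% G and C. The *Igfbp2* stretch held 3 GC boxes and 67.2% G and C, whereas the *Igfbp5* stretch held no match and 58.8% G and C. Over all 32851 stretches of this length in the table the median was 52.4% G and C, and 12.4% held a TATA box, 32.7% a GC box, and 33.8% a CCAAT match. All 8 members had an entry, and *Igfbp2* had a second start. A match to these letters is a description of the sequence only.

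*Igf1* RNA was found in fibroblasts, myofibroblasts, and macrophages. The stromal class held 93.6% of its 5163 UMIs (mean over mice), and 26.3% of the UMIs of all genes. In the stromal class its level was 283, 260, and 281 CPM in mice 2, 3, and 4. In endothelial cells it was 12.5, 9.57, and 8.71 CPM, in immune cells 5.21, 7.10, and 13.8 CPM, and in epithelial cells 1.68, 1.49, and 1.27 CPM, so the stromal values overlapped those of no other class. By type, Col14a1-type fibroblasts had 337, 453, and 595 CPM (461 ± 129) and myofibroblasts 441, 392, and 390 CPM (408 ± 28.8), and these ranges overlapped (exact 2-sided permutation test, *p* = 0.6). Col13a1-type fibroblasts had 198 ± 35.8 CPM (435 UMIs) and interstitial macrophages 193 ± 73.4 CPM (77 UMIs), which overlapped as well. The UMIs of interstitial macrophages were in 4 of 34, 7 of 36, and 9 of 45 cells of mice 2, 3, and 4. The highest cell of each mouse held 5 of 11, 11 of 29, and 14 of 37 of them. All values of myofibroblasts were above those of Col13a1-type fibroblasts. With 3 mice per type this exact test cannot go below *p* = 0.1, the value it gave for every pair of neighbors in the order that did not overlap.

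Below these types came alveolar macrophages with 60.7 ± 28.3 CPM (28 UMIs) and smooth muscle cells with 26.2 ± 3.08 CPM (108 UMIs). Pericytes, NK cells, and neutrophils held 0 *Igf1* UMIs. A cell with an *Igf1* UMI was found among 78.9% ± 3.14% of myofibroblasts and 71.7% ± 5.90% of Col14a1-type fibroblasts (28.5% and 29.9% after thinning to 1000 UMIs per cell). Thinned shares leave out cells below that depth, which were 0 of 804 myofibroblasts, 6 of 100 Col14a1-type fibroblasts, 5 of 1784 B cells, 53 of 467 neutrophils, 31 of 167 AT1 cells, and 47 of 168 Car4-type capillary ECs. Among B cells, the background, it was 0.359% ± 0.341% (median depth 3960.5 UMIs, against 10666 in myofibroblasts and 13794 in Col14a1-type fibroblasts). Myofibroblasts were made up of 2 clusters, and these differed in *Igf1*. The cluster led by *Aspn* and *Hhip* (586 cells) had 534, 521, and 487 CPM, and the cluster led by *Pdgfra*, *Stc1*, and *Agt* (218 cells) had 159, 161, and 160 CPM. Of the genes of the type fit, *Clmp* (*r* = 0.83), *Colec12* (0.83), and *Cemip* (0.82) had levels across the 19 types most like those of *Igf1* (Pearson's *r* of mean log2(CPM + 1); the types share the 3 libraries, and this is a description). The plot of all members by type shows the stromal and macrophage columns in which *Igf1* stood out.

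**Figure D1:**
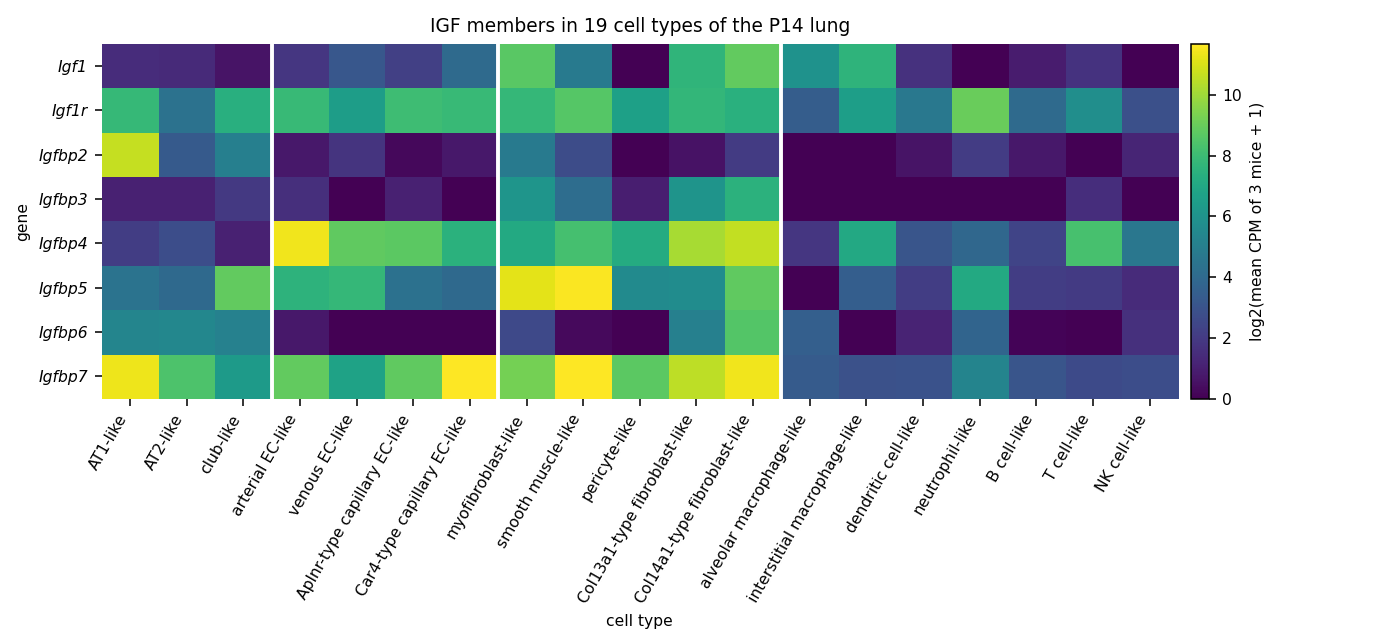
Heat map of the 8 members (rows) in the 19 types with at least 10 cells in every mouse (columns; white lines separate epithelial, endothelial, stromal, and immune types), colored by log2(mean CPM of 3 mice + 1). *Igfbp2* was brightest in AT1 cells (1616 CPM), *Igfbp4* in arterial ECs (2722 CPM), *Igfbp5* in smooth muscle cells (3118 CPM), and *Igf1r* was spread over many types with its highest value in neutrophils (512 CPM); each row is read on its own.

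*Igf1r* had UMIs in all 19 types, and its highest level was in neutrophils, an immune type that held 0 UMIs of *Igf1*. Neutrophils had 505, 505, and 526 CPM (512 ± 12.2), above smooth muscle cells with 331, 405, and 407 CPM (381 ± 43.0). Both types lay above all others in the order. Next came 6 types whose neighbors all overlapped: Aplnr-type capillary ECs (261 ± 46.8 CPM), arterial ECs (236 ± 25.2), Car4-type capillary ECs (234 ± 7.68), AT1 cells (225 ± 27.4), myofibroblasts (217 ± 23.3), and Col13a1-type fibroblasts (212 ± 15.8). Basophil- or mast-like cells, with fewer than 10 cells in mouse 2 and therefore outside the order, had 512, 675, and 579 CPM over 44 cells. The lowest levels were in AT2 cells (20.1 ± 4.58 CPM), B cells (15.2 ± 0.388), alveolar macrophages (9.91 ± 4.76), and NK cells (6.22 ± 2.66). This order is of CPM. Per cell, neutrophils held fewer *Igf1r* UMIs (582 in 467 cells) than smooth muscle cells (1576 in 291 cells).

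The share of neutrophils with an *Igf1r* UMI was 63.5% ± 3.07% at a median depth of 2133 UMIs, and of B cells 4.80% ± 0.172%. At 1000 UMIs per cell these shares were 39.6% and 1.37%. The neutrophil value also stood with marked doublets left out (537 ± 26.6 CPM). Summed over a class, *Igf1r* in endothelial cells (224 ± 23.0 CPM) and stromal cells (247 ± 23.9 CPM) overlapped, with a log2 difference of −0.25 ± 0.13 (SE; edgeR adjusted *p* = 0.116). With the mouse as a block this difference passed the threshold (edgeR adjusted *p* = 0.0227). The genes with the most similar levels across types were *Tmem43* (*r* = 0.86), *Fam76a* (0.84), and *Rnf11* (0.82).

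*Igfbp2* RNA was held mostly by AT1 cells, the thin cells of the gas exchange surface, which held 87.9% of its UMIs (mean over mice). AT1 cells had 2039, 1070, and 1740 CPM in mice 2, 3, and 4. The next type, club cells, had a 51.3-fold lower mean of 31.5 ± 18.5 CPM, myofibroblasts had 27.5 ± 4.94 CPM, and AT2 cells had 8.85 ± 5.96 CPM. Of AT1 cells, 68.2% ± 6.83% had an *Igfbp2* UMI (60.4% at 1000 UMIs per cell), compared with 0.237% ± 0.317% of B cells. Interstitial and alveolar macrophages, T cells, and pericytes held 0 *Igfbp2* UMIs. *Sh3rf2* (*r* = 0.97) and the guidance cues *Sema3e* (0.93) and *Sema3a* (0.91) had the most similar levels across types.

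*Igfbp6* had a low level in epithelium and a high level in a small stromal type. AT2 cells had 39.7, 47.1, and 37.7 CPM, and AT1 cells (38.5 ± 14.1 CPM), club cells (33.8 ± 15.6), and Col13a1-type fibroblasts (32.8 ± 4.48) each overlapped with the type before it in the order, although all values of Col13a1-type fibroblasts were below those of AT2 cells. In Col14a1-type fibroblasts it was 293, 288, and 527 CPM, with no overlap with AT2 cells. Mouse 4 was the highest, and with a stricter filter on cells, which kept 90 of the 100 cells, its value became 160 CPM and the mean 253 ± 80.9. *Igfbp6* was nearly missing from endothelium, with 1 UMI in 891 endothelial cells and 0 in Aplnr-type capillary, Car4-type capillary, and venous ECs. *Rbp4*, the carrier of retinol (*r* = 0.92), *Efemp1* (0.90), and *Tspan11* (0.89) were the most similar genes.

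*Igfbp4* was highest in arterial ECs, with 2300, 2891, and 2976 CPM (2722 ± 368), and all of these values lay above those of every other type in the order. The largest cluster of arterial ECs taken alone lay below Col14a1-type fibroblasts in every mouse, as given below with venous ECs. Col14a1-type fibroblasts followed with 1576 ± 56.6 CPM and Col13a1-type fibroblasts with 1131 ± 18 CPM, each without overlap with the next. Venous ECs (457 ± 18.7 CPM) and Aplnr-type capillary ECs (430 ± 19.1) overlapped, and T cells (310 ± 12.9) overlapped with smooth muscle cells (303 ± 55.4). Of the lymphocytes T cells had the highest value, since NK cells had 23.5 ± 34.4 CPM and B cells 4.19 ± 0.763 CPM. *Tgfbr3* (*r* = 0.88), a coreceptor for TGF-β, *Ecm1* (0.85), and *Sdf4* (0.85) were most similar.

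*Igfbp7* was high in types of 3 different classes. Car4-type capillary ECs had 3042, 3586, and 3198 CPM (3275 ± 280), and smooth muscle cells had 3214, 3284, and 3024 CPM (3174 ± 135). Col14a1-type fibroblasts had 2777 ± 598 CPM and AT1 cells 2633 ± 376 CPM. Each of these 4 types overlapped with the next, but all values of Car4-type capillary ECs and of smooth muscle cells were above those of AT1 cells. AT1 cells lay above Col13a1-type fibroblasts (1440 ± 213 CPM) without overlap. Cells with an *Igfbp7* UMI were 88.8% of Car4-type capillary ECs at 1000 UMIs per cell, and 0.841% of B cells. The tissue metalloproteinase inhibitor *Timp3* (*r* = 0.95), the matrix protein *Sparc* (0.94), and *Sgce* (0.94) were most similar.

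**Figure D2:**
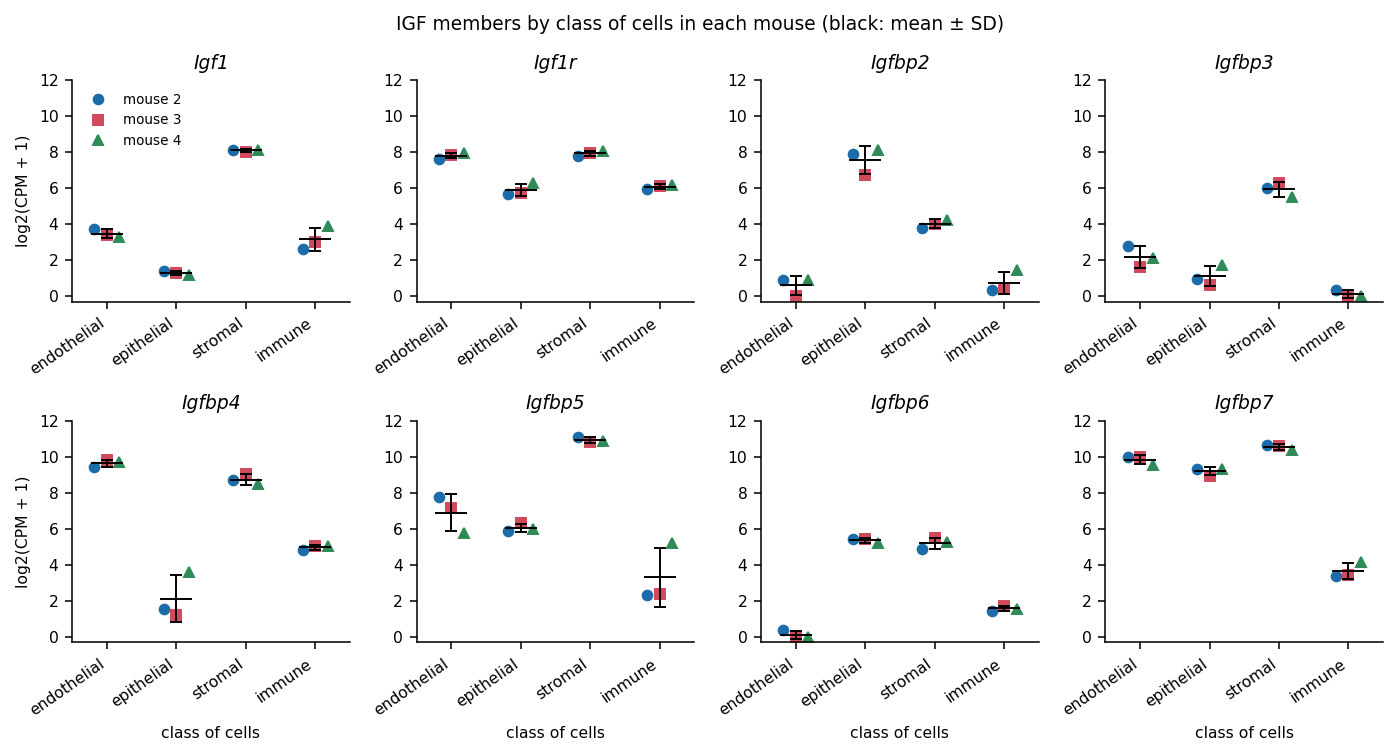
Level of each member as log2(CPM + 1) in endothelial, epithelial, stromal, and immune cells of mice 2 (circles), 3 (squares), and 4 (triangles); black lines are the mean ± SD over mice on this scale. *Igf1*, *Igfbp3*, and *Igfbp5* were highest in stromal cells in every mouse, *Igfbp2* in epithelial cells, and *Igfbp4* in endothelial cells, while immune cells lay below stromal cells in each panel.

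*Igfbp5* was highest in smooth muscle cells and myofibroblasts, the contractile cells of the stroma. Smooth muscle cells had 3374, 2959, and 3021 CPM and myofibroblasts 2568, 2352, and 2146 CPM, without overlap, and the next type, club cells, had 468 ± 99.7 CPM. Stromal cells held 91.6% of the *Igfbp5* UMIs. As for *Igf1*, the clusters of myofibroblasts were apart: the *Aspn* and *Hhip* cluster had 3234, 3274, and 2833 CPM, which overlapped with smooth muscle cells, and the *Pdgfra*, *Stc1*, and *Agt* cluster 548, 687, and 519 CPM. In neutrophils *Igfbp5* was 24.2, 11.2, and 371 CPM. In mouse 4, 130 of its 132 neutrophil UMIs came from 1 cell that was marked as a doublet, and the mean without marked doublets was 13.9 ± 10.2 CPM. *Map1b* (*r* = 0.87), *Adamts5* (0.86), and *Aebp1* (0.86) were most similar.

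*Igfbp3* was also stromal (1073 of 1191 UMIs, a mean share over mice of 89.6%). Col14a1-type fibroblasts had 191, 192, and 160 CPM (181 ± 18.3), above myofibroblasts (66.4 ± 12.8) and Col13a1-type fibroblasts (64.3 ± 36.5), which overlapped. Smooth muscle cells had 17.0 ± 7.40 CPM, and 8 of the 19 types held 0 UMIs. The hedgehog effector *Gli2* (*r* = 0.97), *Wbscr17* (0.97), and *Srpx* (0.96) were most similar. Among the members themselves, *Igf1* and *Igfbp3* had the highest correlation across the 19 types (*r* = 0.71), followed by *Igf1r* with *Igfbp5* (0.68) and *Igf1r* with *Igfbp7* (0.66). The genomic neighbors *Igfbp2* and *Igfbp5* had *r* = 0.30.

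Col14a1-type fibroblasts, the type with the highest *Igfbp3* and *Igfbp6* and, in overlap with myofibroblasts, the highest mean *Igf1*, were only 100 cells, and cartilage genes (*Col2a1*, *Col10a1*, and *Acan*) were among their leading genes. Of these cells, 18 held at least 3 UMIs of *Col2a1*, *Col10a1*, *Acan*, and *Col11a1*. All 271 *Igfbp3* UMIs and 510 of the 512 *Igfbp6* UMIs of the type were in the other 82 cells. Without the 18 cells, levels were 492 ± 111 CPM for *Igf1*, 223 ± 38.1 for *Igfbp3*, 1873 ± 115 for *Igfbp4*, and 450 ± 165 for *Igfbp6*. The fetal ligand *Igf2*, the relative of *Igf1*, was spread the other way, with 829 of its 887 UMIs in the 18 cells. Its level was 102, 951, and 654 CPM in the whole type and 36.4, 32.6, and 91.4 CPM without them.

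**Figure D3:**
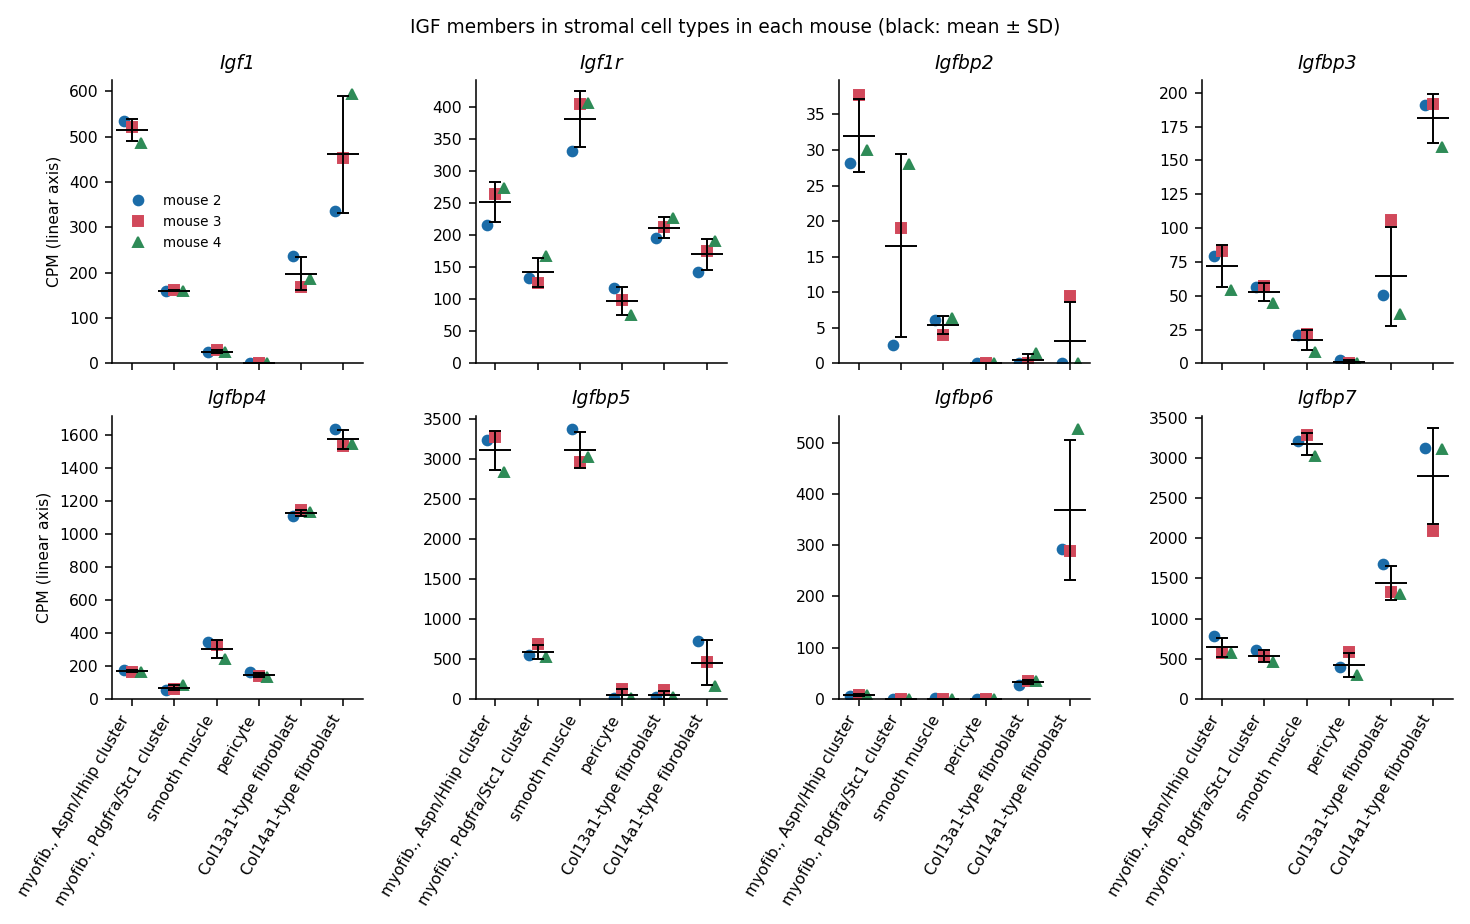
CPM (linear axis from 0, scale set for each gene) of the 8 members in stromal types of mice 2 (circles), 3 (squares), and 4 (triangles), with myofibroblasts divided into their 2 clusters; black lines are the mean ± SD. *Igfbp5* was high in the *Aspn* and *Hhip* cluster (3114 ± 244 CPM) and in smooth muscle cells and low elsewhere, *Igfbp6* was high in Col14a1-type fibroblasts alone, and *Igf1* was at 0 in pericytes.

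UMIs were summed per mouse and class and compared with edgeR's quasi-likelihood test over 14209 genes, all 8 members among them. All 8 members were higher in stromal than in immune cells. Of all genes tested, 76.4% were called in either direction, 39% being higher in stromal and 37.4% in immune cells. A class sum follows the mix of types captured, and 1784 of the 3019 immune cells were B cells. Neutrophils, an immune type, had more *Igf1r* (512 ± 12.2 CPM) than any stromal type. The median absolute difference was 4.56 on the log2 scale for the members and 1.03 for all genes. With the sign kept, the medians were 4.56 and 0.02, but the scaling (TMM) holds that of all genes near 0. *Igf1* was 4.86 ± 0.17 higher (SE; edgeR adjusted *p* = 1.31e-12), and *Igfbp3*, with 1 UMI in immune cells, had an 856-fold higher pooled level (95% interval from counting error alone, 153 to 33823).

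Against epithelial cells, stromal cells were higher in 6 members and lower in 2 (of all genes, 67.2% were called, 35.9% higher in stromal and 31.2% in epithelial cells). The 2 were *Igfbp2* (4.14 ± 0.32 higher in epithelium on the log2 scale, edgeR adjusted *p* = 1.84e-08) and *Igfbp6* (0.52 ± 0.14 higher, adjusted *p* = 0.00357). The *Igfbp6* call was lost with library sizes alone (0.14, adjusted *p* = 0.366), which left 1 member higher in epithelium against 6, and without mouse 2 (edgeR adjusted *p* = 0.0893). Against endothelial cells, stromal cells were higher in 6 members (of all genes, 56% were called, 31.1% higher in stromal and 24.9% in endothelial cells), among them *Igf1* by 4.84 ± 0.18 and *Igfbp5* by 3.94 ± 0.56. In mouse 2, 547 of the 722 endothelial *Igfbp5* UMIs came from 1 lymphatic-like cell that was marked as a doublet, and with marked doublets left out the *Igfbp5* difference was 4.81 (edgeR adjusted *p* = 1.53e-10). *Igfbp4* was higher in endothelial cells by 0.78 ± 0.30 (edgeR adjusted *p* = 0.0359), a call that DESeq2 did not make (adjusted *p* = 0.319) and that was lost without mouse 2 (edgeR adjusted *p* = 0.106) and at clustering resolution 0.4 (0.0511).

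Between endothelial and epithelial cells 5 members were called (66% of all genes, 33.1% higher in endothelium and 33% in epithelium). *Igf1* (2.30 ± 0.35), *Igf1r* (1.39 ± 0.14), and *Igfbp4* (6.77 ± 0.42) were higher in endothelium on the log2 scale, and *Igfbp2* (8.73 ± 0.59) and *Igfbp6* were higher in epithelium. AT2 cells were 1042 of the 1257 epithelial cells. In AT1 cells alone *Igf1r* (225 ± 27.4 CPM) overlapped with that of Car4-type capillary ECs. Of the 93 endothelial *Igf1* UMIs, 41 were in lymphatic-like ECs (22 cells, 11 marked as doublets). With marked doublets left out *Igf1* was higher by 4.62 and *Igfbp4* by 8.51, and without mouse 4 *Igfbp4* was higher by 8.37. With library sizes alone *Igfbp3* and *Igfbp7* were called too, which made 5 members higher in endothelium and 2 in epithelium. Without mouse 4 the count was also 5 against 2, with *Igfbp3* and *Igfbp5* called (edgeR adjusted *p* = 0.0161 and 0.0016). The *Igfbp6* level was 359-fold higher in epithelium (891 UMIs against 1; 95% interval from counting error alone, 64.3 to 14198). Against immune cells, 5 members were higher and 1 lower in endothelium (of all genes, 68.5% were called, 33.1% higher in endothelial and 35.3% in immune cells). Of those higher in endothelium, *Igfbp3* had 28 of its 36 endothelial UMIs in lymphatic-like ECs (22 cells, 11 marked as doublets), and *Igfbp5* had 592 of 1243. With marked doublets left out *Igfbp5* was higher in endothelium by 4.01 (edgeR adjusted *p* = 2.56e-08), against 3.04 with them. Epithelial cells were higher than immune cells in 5 members and lower in 2 (of all genes, 75.7% were called, 38% higher in epithelial and 37.7% in immune cells). The 2 lower in epithelium than in immune cells were *Igf1*, by 2.28 ± 0.33, and *Igfbp4*, by 2.29 ± 0.44. With marked doublets left out these differences, as epithelial over immune, were −4.85 and −4.00, and without mouse 4 that of *Igfbp4* was −3.88. Among the 5 higher, the *Igfbp3* call was lost with marked doublets left out (edgeR adjusted *p* = 0.135) and the *Igfbp5* call with the stricter filter on cells (0.279), under which *Igf1r* was called lower in epithelium.

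Pairs of related types were compared in 1 fit over 13077 genes, again with all 8 members among them, and the plot of fold changes gives each pair. Between Col13a1-type and Col14a1-type fibroblasts, 5 members were called, all higher in the Col14a1 type (of all genes, 20.5% were called, 11.7% higher in the Col14a1 type and 8.77% in the Col13a1 type). On the log2 scale the differences were 1.28 ± 0.18 for *Igf1* (edgeR adjusted *p* = 1.04e-07), 1.5 ± 0.30 for *Igfbp3*, 3.17 ± 0.59 for *Igfbp5*, 3.5 ± 0.28 for *Igfbp6* (adjusted *p* = 1.54e-13), and 1.02 ± 0.29 for *Igfbp7*. The *Igfbp7* call was lost without mouse 4 (edgeR adjusted *p* = 0.0701) and the *Igfbp3* call with DESeq2 (adjusted *p* = 0.0573). With the Col14a1-type cells that held cartilage UMIs left out, 6 members were called, all higher in the Col14a1 type. *Igfbp5* was 728, 467, and 160 CPM in the Col14a1 type and 21.2, 110, and 18.3 CPM in the Col13a1 type, and 191 of the 350 Col14a1-type UMIs in mouse 2 came from 1 cell. As Col13a1 over Col14a1 type, the *Igfbp5* difference was −2.29 without mouse 2 and −4.66 without mouse 3, and that of *Igfbp3* was −2.15 without mouse 3. *Igf1r* did not pass the test (0.26 ± 0.17 higher in the Col13a1 type, edgeR adjusted *p* = 0.341).

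Myofibroblasts against Col13a1-type fibroblasts gave 3 members higher and 3 lower (of all genes, 28.6% were called, 13.5% higher and 15% lower). *Igf1* (0.96 ± 0.16), *Igfbp2*, and *Igfbp5* (5.35 ± 0.61) were higher in myofibroblasts, and *Igfbp4* (3.14 ± 0.32), *Igfbp6* (2.81 ± 0.42), and *Igfbp7* (1.33 ± 0.29) were higher in Col13a1-type fibroblasts. Without mouse 3 the *Igfbp5* difference was 6.82. *Igfbp2* rested on 242 UMIs against 1, a 61.3-fold higher pooled level (95% interval from counting error alone, 10.9 to 2430). Against smooth muscle cells, myofibroblasts were higher in 4 members and lower in 3 (of all genes, 26.7% were called, 11.8% higher and 14.9% lower). *Igf1* was 3.85 ± 0.20 higher in myofibroblasts (edgeR adjusted *p* = 2.82e-21; 2.22 higher at clustering resolution 1.2), while *Igfbp7* (2.49 ± 0.30), *Igfbp4* (1.25 ± 0.31), and *Igf1r* (0.92 ± 0.14) were higher in smooth muscle cells. *Igfbp5* did not pass the test here (0.52 ± 0.47 higher in smooth muscle cells, edgeR adjusted *p* = 0.483). DESeq2 did not call *Igfbp2* or *Igfbp4* in this pair (adjusted *p* = 0.0688 and 0.0514), and the *Igfbp6* call was lost without mouse 4 (edgeR adjusted *p* = 0.097).

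Pericytes, the mural cells of capillaries, were lower than smooth muscle cells in 6 members and higher in none (of all genes, 24.4% were called, 13.4% lower and 11.1% higher). *Igfbp5* was lower by 6.63 ± 0.74 on the log2 scale, *Igfbp7* by 3.08 ± 0.33, *Igf1r* by 2.09 ± 0.20, and *Igfbp4* by 1.19 ± 0.37. As pericytes over smooth muscle cells, the *Igfbp5* difference was −5.89 without mouse 2 and −8.98 without mouse 3. *Igf1*, with 108 UMIs in smooth muscle cells and 0 in pericytes, was at least 6.62-fold higher in smooth muscle cells (against 3 counts over the group). *Igfbp3* had 70 UMIs against 1 (12.9-fold; 95% interval from counting error alone, 2.23 to 515), and its call was lost without mouse 2 or without mouse 3 (edgeR adjusted *p* = 0.127 and 0.119) and at clustering resolution 0.4 (0.0565). DESeq2 did not call *Igfbp4* (adjusted *p* = 0.1).

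AT1 cells were higher than AT2 cells in 3 members, and none was lower (of all genes, 31.9% were called, 16% higher in each type). These were *Igfbp2* (7.17 ± 0.27 on the log2 scale, edgeR adjusted *p* = 3.27e-26), *Igf1r* (3.23 ± 0.17), and *Igfbp7* (2.68 ± 0.31). *Igf1r* was 204, 216, and 256 CPM in AT1 cells and 17.0, 18.1, and 25.4 CPM in AT2 cells. The 5 members not called included *Igfbp6* (0.39 ± 0.28 lower in AT1 cells, edgeR adjusted *p* = 0.322).

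Capillary ECs were also divided, with 3 members called where 8.98% of all genes were, 4.31% higher in the Car4 type and 4.67% in the Aplnr type. *Igfbp7* was 2.81 ± 0.31 higher in the Car4 type on the log2 scale (edgeR adjusted *p* = 4.91e-10; 2.09 at clustering resolution 0.4), and *Igfbp4* was 1.34 ± 0.33 higher in the Aplnr type, a call that DESeq2 did not make (adjusted *p* = 0.107). *Igf1* was higher in the Car4 type, on 21 UMIs against 17, and lost its call without any 1 of the mice (edgeR adjusted *p* = 0.0549 to 0.181). Arterial ECs were higher than venous ECs in 3 members and lower in none (of all genes, 8.82% were called, 4.08% higher and 4.74% lower): *Igfbp4* by 2.55 ± 0.32 (edgeR adjusted *p* = 1.07e-08), *Igfbp7* by 2.14 ± 0.35, and *Igf1r* by 1.39 ± 0.20. The *Igfbp7* difference was 2.73 without mouse 4 and 1.21 at clustering resolution 0.4. One cluster of arterial ECs (100 cells) had the AT2 genes *Sftpc*, *Sftpb*, and *Lyz2* among its leading genes. AT2 cells had 5.74 ± 7.45 CPM of *Igfbp4*, 20.1 ± 4.58 CPM of *Igf1r*, and 344 ± 23.0 CPM of *Igfbp7*. In that cluster *Igfbp7* was 858, 683, and 917 CPM, and in the other arterial cluster (59 cells, led by *Cytl1* and *Sfrp1*) it was 108, 64.0, and 60.7 CPM, which overlapped with venous ECs (70.2, 69.3, and 176 CPM). *Igfbp4* was 861, 1229, and 1231 CPM in the first and 4596, 4451, and 4503 CPM in the second, and all of these values were above those of venous ECs. The values of the first were below those of Col14a1-type fibroblasts (1641, 1536, and 1551 CPM) in every mouse. The part of AT2 RNA in the arterial levels was not tested.

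Interstitial macrophages were higher than alveolar macrophages in 3 members (of all genes, 14.2% were called, 7.55% higher and 6.65% lower). *Igf1* was 108, 230, and 241 CPM in interstitial and 54.9, 35.8, and 91.4 CPM in alveolar macrophages, a difference of 1.51 ± 0.40 (edgeR adjusted *p* = 0.00669). *Igf1r* was higher by 2.79 ± 0.58 (2.11 without mouse 2 and 3.49 without mouse 3), on 33 UMIs against 5, and *Igfbp4* had 52 UMIs against 1 (64.9-fold; 95% interval from counting error alone, 11.1 to 2611). In mouse 3, 20 of the 33 *Igfbp4* UMIs of interstitial macrophages came from 1 cell. Without mouse 3 the *Igf1* and *Igfbp4* calls were lost (edgeR adjusted *p* = 0.226 and 0.108), which left 1 member.

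**Figure D4:**
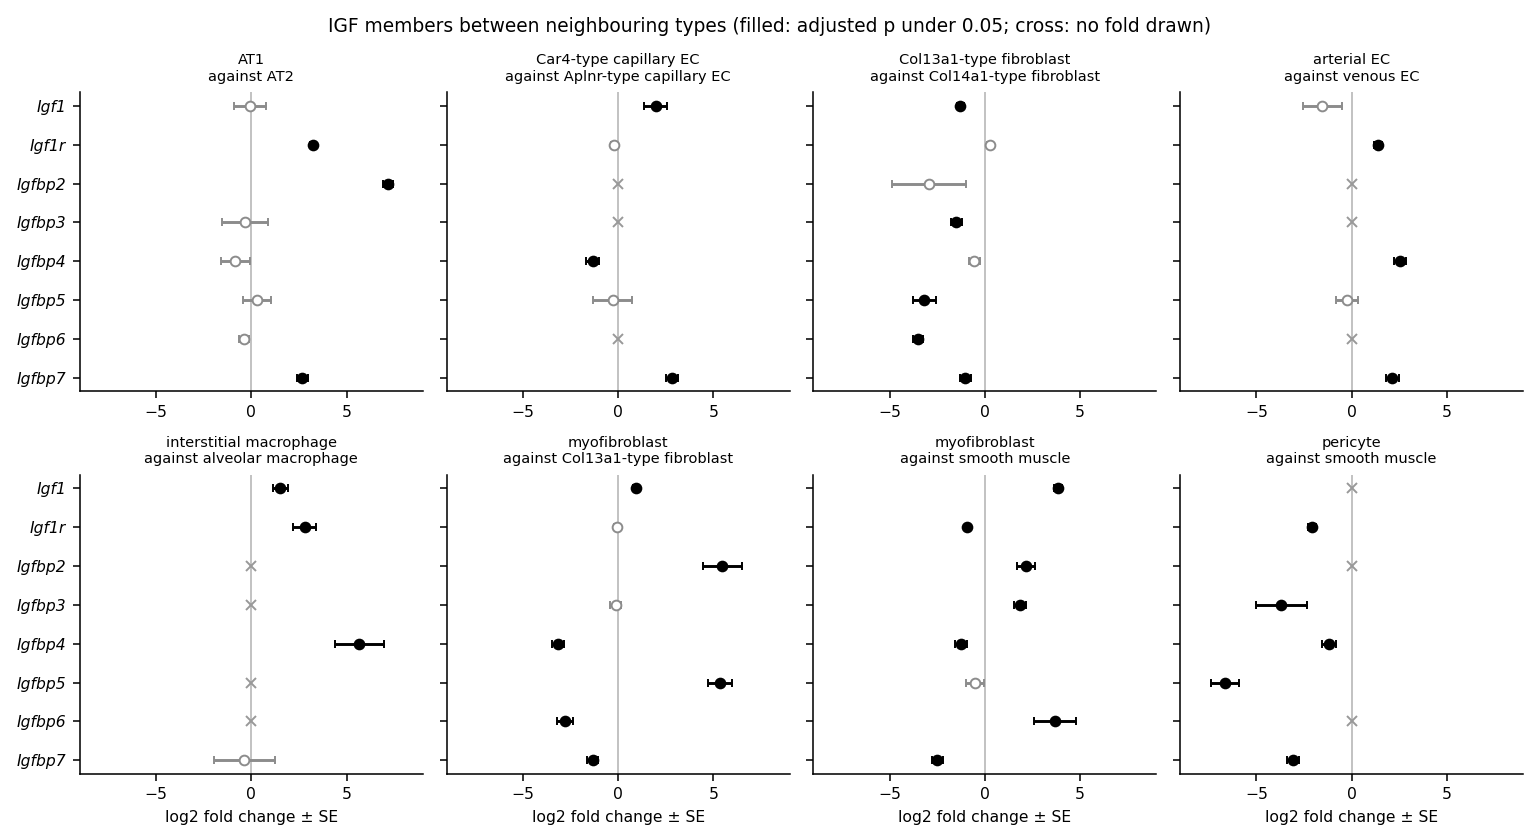
Log2 fold changes ± SE of the 8 members between 8 pairs of related types from the edgeR fit; filled points had an adjusted *p* under 0.05, open gray points did not, and crosses mark members with 0 UMIs in a type of the pair or 3 or fewer in both. The Col14a1 type was higher than the Col13a1 type in all 5 members called, and smooth muscle cells were higher than pericytes in all members called.

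A wider list held 30 further genes, of which 24 had at least 50 UMIs: *Igf2*, other receptors, proteases that cut binding proteins and their inhibitors, adaptors, and the growth hormone axis, which drives *Igf1* in other organs. Of these, 19 were higher and 3 lower in stromal than in immune cells (76.4% of all genes called), and 5 were higher and 13 lower in endothelial than in stromal cells (56%). The growth hormone receptor *Ghr* and the feedback inhibitor *Socs2* were high in myofibroblasts, with 620, 635, and 653 CPM for *Ghr* and 645, 654, and 651 CPM for *Socs2*. Myofibroblasts were higher than Col13a1-type fibroblasts in 8 of 23 genes and lower in 4 (28.6% of all genes called). On the log2 scale *Htra1*, a serine protease that can cut binding proteins, was 6.06 ± 0.36 higher in myofibroblasts, *Stc1*, an inhibitor of pappalysins, 6.52 ± 0.42, and *Ghr* 2.23 ± 0.13 (edgeR adjusted *p* = 9.93e-20). Myofibroblast values of the wider list pool both clusters, and *Stc1* was a leading gene of the cluster with *Pdgfra* and *Agt*. Whether the same cells held these genes was not tested. The pappalysin *Pappa2*, a protease of *Igfbp3* and *Igfbp5* products, had 1084 UMIs in myofibroblasts and 1 in Col13a1-type fibroblasts (274-fold; 95% interval from counting error alone, 49.2 to 10850). *Pappa*, which cuts the *Igfbp4* product, had 227 UMIs against 3 (19.2-fold; interval 6.47 to 93.6).

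Myofibroblasts against smooth muscle cells gave 10 of the 23 genes higher and 7 lower (26.7% of all genes called), with *Ghr* 1.51 ± 0.11 and *Stc1* 2.81 ± 0.22 higher in myofibroblasts and the adaptor *Grb14* lower by 3.75 ± 0.32. Pericytes against smooth muscle cells gave 4 higher and 10 lower (24.4% of all genes), with the adaptor *Gab1* 1.46 ± 0.20 higher in pericytes and *Htra1* lower by 2.71 ± 0.34. Col13a1-type against Col14a1-type fibroblasts gave 2 higher (*Socs2* and *Adamts1*) and 8 lower, *Htra1* by 5.69 ± 0.39 (20.5% of all genes). The Col14a1-type sums in this count include the 18 cells with cartilage UMIs, which held 829 of the 887 *Igf2* UMIs. Mean *Htra1* in the Col14a1 type was 310 CPM with these cells and 347 CPM without them. Between Car4-type and Aplnr-type capillary ECs, 5 were higher and 2 lower (8.98% of all genes), and the adaptor *Irs1* was 3.34 ± 0.32 higher in the Car4 type. *Igf2* and *Htra1* were among these 5, but their Car4-type values were 67.5 CPM in mouse 2 and at most 6.93 CPM in the other mice. Arterial against venous ECs gave 3 higher (*Htra1*, *Igf2*, and *Stc1*) and 3 lower (8.82% of all genes), and *Stc1* was 4.31 ± 0.48 higher in arterial ECs. AT1 against AT2 cells gave 6 higher and 4 lower (31.9% of all genes), with *Htra1* 2.96 ± 0.25 higher and *Irs2* lower by 1.90 ± 0.25 in AT1 cells. Interstitial against alveolar macrophages gave 1 higher (*Stat5b*) and 2 lower (*Irs2* and *Socs2*), 3 of 23 genes where 14.2% of all genes were called, a share near that of all genes.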

How the data were processed

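Single-cell RNA-Seq libraries of dissociated whole lung from 3 mice were analyzed. The authors made 10x v3 3′ libraries, ran Cell Ranger 3.0.2 on each one, and deposited the resulting UMI counts, which are whole numbers and were not normalized; mm10 is named in the submitters' processing notes, and the annotation was not given in the sources used here. Each file lists only droplets kept as cells, 9644 in all with 71413428 UMIs (22476491 to 25192427 per library), and library pairs shared 2 to 5 barcodes.

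A droplet was kept if it had 200 or more genes and no more than 20% of its UMIs from mitochondrial genes. In R 4.3.3, SCTransform (sctransform 0.4.2, called from Seurat 5.3.0) was run on the pooled cells, and 30 principal components were clustered at a resolution of 0.8, without the 38 IGF genes among the 3000 variable genes. This gave 32 clusters, and ECs were clustered again (20 components). A cluster was named from marker lists when its mean log2 fold was at least 1 (0.5 within ECs) with at least 3 markers detected. At least 1 marker also had to be among its 10 leading genes, and no other class could have more there. Within ECs the type needed no marker among the leading genes, and an EC cluster that passed for no type kept its earlier name. These limits were chosen with the clusters in view. Scrublet (scanpy 1.11.5) marked doublets, the highest scores in each library (74, 79, and 97 cells), since automatic thresholds marked under 0.5%. Marked cells stayed in unless stated. A cell with a UMI of a gene does not by itself express it; intervals and limits for counts of 0 (3 counts) cover counting error only.

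UMIs were summed per mouse and class, or per mouse and type with at least 10 cells, and tested by quasi-likelihood in edgeR 4.0.16 (TMM, filterByExpr), with *p* values adjusted by Benjamini-Hochberg across every gene in the fit and a threshold of 0.05. Fold changes are log2 of the first over the second group. On simulated counts the test recovered 100% of 200 genes changed by 2 on the log2 scale between endothelial and epithelial cells and 98.5% between myofibroblasts and Col13a1-type fibroblasts. The simulation gave every gene the same spread beyond counting error, had no effect of the mouse, and changed no gene of low level. It therefore does not describe calls that rest on few UMIs or few cells. Sums that carry the same mouse number are from 1 animal; after group means were subtracted they correlated at *r* = 0.0582 to 0.261. The fits had no block for the mouse; a blocked fit, DESeq2 1.42.0, other scalings, filters, clusterings, and leaving out mice were alternatives. The members and gene lists were chosen with earlier results of these data known. The rule for named genes was the 8 members, genes of the wider list past the threshold with a log2 difference of at least 1, and for each member the 3 genes with the highest correlation across types, after adding 1 CPM.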

Additional observations from a re-analysis of the deposited data

Results flagged for a closer look

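The comparisons used no droplet that the filter on cells left out, and these 2002 droplets held UMIs of every member above the 3 counts allowed by a count of 0. They held 78 UMIs of *Igf1*, 200 of *Igf1r*, 73 of *Igfbp2*, 8 of *Igfbp3*, 252 of *Igfbp4*, 602 of *Igfbp5*, 18 of *Igfbp6*, and 390 of *Igfbp7*, among 4866195 UMIs in all. Of these droplets, 2000 had over 20% mitochondrial UMIs, with a median of 52.8%. They have no cell type here.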

How the results depend on the processing

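The counts of members called in the 14 comparisons stayed within 1.5 times their value under all alternatives that gave one, except interstitial against alveolar macrophages, where leaving out each mouse gave 1 to 3 members. That pair could not be fitted under the stricter filter on cells or at resolution 0.4. The blocked fit changed no call other than that of *Igf1r* between endothelial and stromal cells (−0.25, adjusted *p* = 0.0227). Of 1444 alternative values for single members, 1381 changed neither sign nor call, 22 lost a call, 12 gained one, and 29 changed sign. Library sizes alone moved the median over all genes by −0.37 to 0.48 between classes and by 0.02 to 0.26 between types (log2), and the causes of the changes below were not tested.

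All sign changes were in differences that had not passed the test. Between endothelial and epithelial cells, *Igfbp5* became −0.10 without marked doublets and *Igfbp7* ranged from −0.06 to 0.35 over the left-out mice. Between endothelial and immune cells, *Igf1* became −0.01 in the blocked fit, −0.22 without doublets, −0.23 with the stricter filter, and −0.35 to 0.57 over the mice, and *Igfbp2* became 0.14 at resolution 0.4 and −0.91 to 0.53. *Igf1r* in epithelial against immune cells became −0.15 with library sizes alone, −0.60 with the stricter filter (adjusted *p* = 0.0105), and −0.10 to 0.23. In AT1 against AT2 cells, *Igf1* became 0.19 with library sizes alone and −4.20 to 0.78 over the mice, *Igfbp3* −4.26 to 1.83, *Igfbp4* 0.75 without doublets and −1.68 to 0.78, and *Igfbp5* −0.19 without doublets and −1.93 to 1.10. *Igfbp5* in Car4-type against Aplnr-type capillary ECs became 1.35 at resolution 0.4, 0.15 at 1.2, and −0.77 to 0.04 over the mice, and in arterial against venous ECs −0.88 to 0.20. Among stromal pairs, *Igfbp2* in Col13a1-type against Col14a1-type fibroblasts ranged from −5.42 to 2.80, and in myofibroblasts against Col13a1-type fibroblasts *Igf1r* became 0.04 with library sizes alone and *Igfbp3* 0.22 without doublets and −0.37 to 0.46. *Igfbp7* between macrophages ranged from −6.20 to 0.60. The stromal share of UMIs moved from 93.6% to 95.1% without doublets and 94.7% with the stricter filter for *Igf1*, from 47.3% to 48.2% and 51.1% for *Igf1r*, and from 91.6% to 93.9% and 94.4% for *Igfbp5*. Thinning to 1000 UMIs lowered the share of cells with a UMI to 29.9% for *Igf1*, 12.6% for *Igfbp3*, and 19.9% for *Igfbp6* in Col14a1-type fibroblasts, 39.6% for *Igf1r* in neutrophils, 60.4% for *Igfbp2* in AT1 cells, 73.8% for *Igfbp4* in arterial ECs, and 64.0% for *Igfbp5* in smooth muscle cells. Leaving out cells under 1000 UMIs, or cells with cartilage UMIs, was chosen after seeing the data.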

Other observations

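Some cells outside the named classes also held member RNA. In 69 cells grouped with ECs but led by *Mfap4*, *Col1a2*, and *Col1a1*, of which 14 were marked as doublets, *Igf1* was 15.8, 69.0, and 42.1 CPM and *Igfbp4* was 433, 496, and 351 CPM. Dividing cells of mixed classes (139 cells, 27 marked as doublets) had 454, 400, and 429 CPM of *Igfbp7*. Lymphatic-like ECs had 4261, 2348, and 1286 CPM of *Igfbp7*, but were 22 cells, 11 of them marked as doublets.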
